A study of Danio rerio with 3 samples.

Results

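The eomes/ccr9-high wells are the 50 wells with the highest mean standardized level of eomes, ccr9, dicp1.1 and sftpba. They were chosen by these measured levels among 593 wells that held at least 1000 gene UMIs, out of 1152 wells on 3 plates. Each level was scaled to 10000 UMIs per well, log transformed and standardized over the 593 wells. The choice of wells rests on these 4 genes, so their levels, and every other difference between these wells and the remaining 543 kept wells, are given as description and carry no test.

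Innate lymphoid cells and natural killer cells are lymphocytes without rearranged antigen receptors. In mammals natural killer cells depend on the T-box factors Eomes and T-bet, and both kinds of cells on cytokine receptors that share the common gamma chain. Teleost fish carry, beside conserved lymphocyte genes, large families of immunoglobulin-domain receptors and the NK-lysins, antimicrobial peptides of the saposin-like family to which surfactant protein B also belongs. Shp1, the phosphatase encoded by ptpn6, acts in blood cells downstream of inhibitory receptors and restrains kinases of the Src and Syk families.

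From whole zebrafish embryos aged 5 days post fertilization, cells with an mpeg reporter, a mark of macrophages, were sorted and sequenced well by well with CEL-Seq2, which counts the 3′ end of each molecule by a unique molecular identifier (UMI). The embryos were ptpn6 mutants or their siblings, a group that the labels do not divide by genotype. On sort day 1 both genotypes shared a plate, and its first 192 wells were taken as siblings by reading the well numbers row by row, an order that the tables do not state. On sort day 2 siblings and mutants were on separate plates, so for that day genotype and plate cannot be told apart. The wells of each genotype and day were summed into 4 pools, with 2 pools per genotype, and values are given below in the order day 1 siblings, day 1 mutants, day 2 siblings and day 2 mutants. The sources used here do not give the mutant allele, the number of embryos or the reporter construct. Nothing in them says that the pools came from separate clutches, so each p-value reflects the spread between pools alone, which may be technical. Kept wells per pool numbered 131, 138, 199 and 125. The median eomes/ccr9-high well held 7039 UMIs (range 1113 to 38631) and the median other well 9154.

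The cut through the score was passed by a small margin. The lowest of the 50 wells scored 0.695 and the next well 0.663, while the median was 2.26 and the highest 4.07. Within 0.2 of the cut lay 4 of the 50 wells and 7 of the others, so the boundary is a point on a range, although few wells lie near it. All 4 rule genes were detected in 20 wells, 3 of them in 19 wells and 2 of them in 11 wells. The 20 wells with all 4 genes had a median of 11040 UMIs and the 11 wells with 2 genes a median of 4439, so detection moved with depth.

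**Figure D1:**
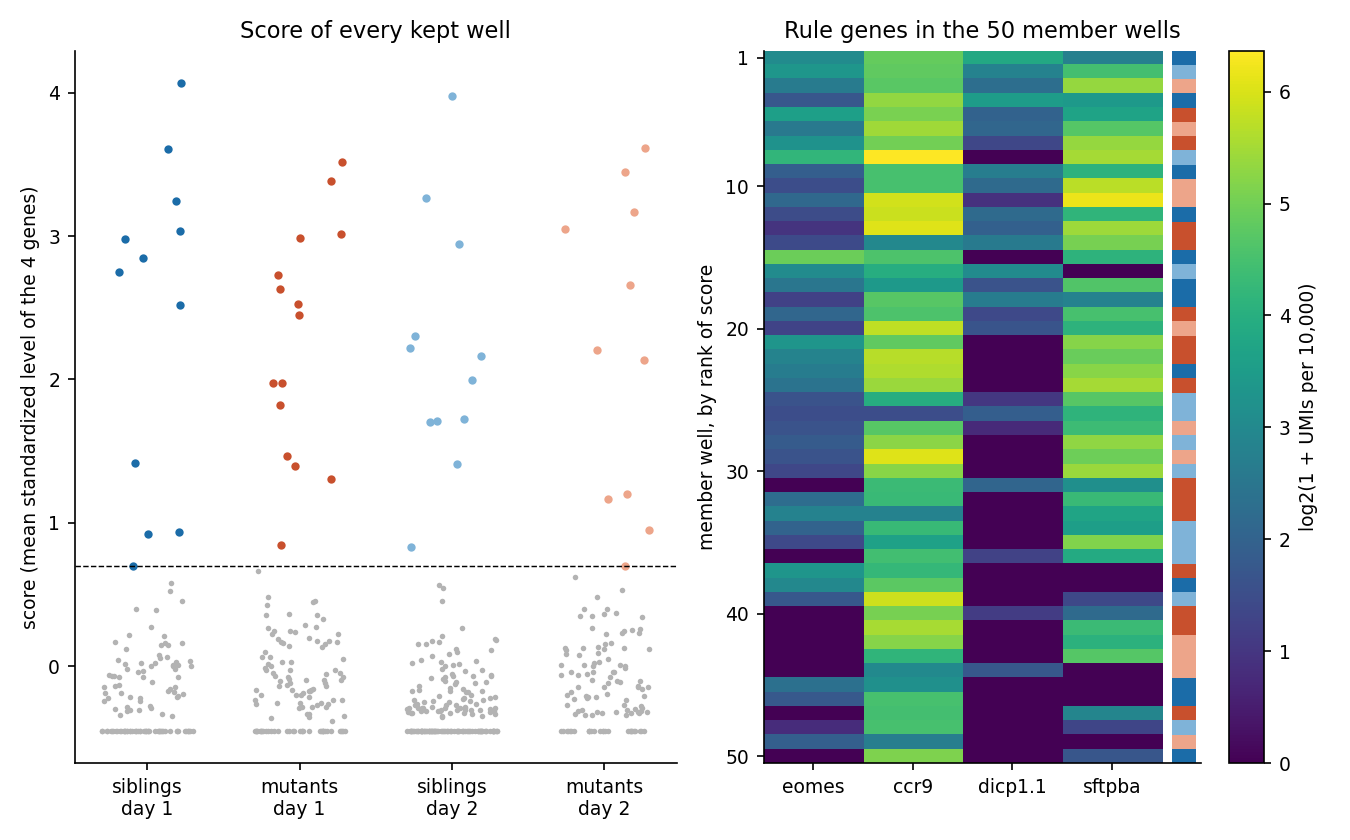
The left panel shows the score of every kept well (points) in the 4 pools, with the 50 eomes/ccr9-high wells in colour, the other wells in grey and the lowest score of the 50, 0.695, as a dashed line. The right panel shows log2(1 + UMIs per 10,000) of the 4 rule genes in the 50 wells ordered by score. The pool of each well is in the same colours at the right edge, and all 4 pools appear in the upper and in the lower part of the order.

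ccr9, a chemokine receptor that in mammals guides lymphocytes to the gut and thymus, was detected in all 50 wells. Its level over summed UMIs was 2861, 3181, 2785 and 3342 CPM (counts per 1000000 UMIs) in the 4 pools, against 308, 328, 117 and 310 CPM in the other wells. Both mutant pools lay above both sibling pools. Of 1455 genes tested in the 50 wells, 435 (29.9%) had no overlap between genotypes, in either direction. Every pool stood above its other wells. Some ccr9 was also present in 283 of the 543 other wells.

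eomes, a T-box transcription factor of natural killer and cytotoxic T cells, was detected in 41 of the 50 wells with 164 UMIs. Its level was 440, 431, 320 and 226 CPM, against 8.10, 9.23, 4.79 and 8.54 CPM in the other wells. The day 2 mutants were lowest, and all 4 pools were far above the other wells. As a background level, eomes had a UMI in 8% of the 50 wells highest in apoeb and apoc1, genes of microglia, whose median depth was 8311 UMIs.

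sftpba encodes a surfactant protein B with saposin domains and was detected in 43 of the 50 wells. Its level was 1706, 2522, 1846 and 2701 CPM, against 10.1, 13.8, 12.5 and 37.6 CPM in the other wells. Both mutant pools lay above both sibling pools in the 50 wells, where 29.9% of genes tested had no overlap between genotypes in either direction. The day 2 mutants were highest in the other wells too. The paralogue sftpbb, which the score did not use, was also higher in each pool, at 216, 479, 421 and 485 CPM against 129, 105, 95.5 and 68.3 CPM. The only further gene measured of the surfactant and saposin list was psap, prosaposin, a precursor of lysosomal proteins. It was at least 2-fold lower in every pool, at 254, 347, 370 and 217 CPM against 957, 890, 855 and 1107 CPM.

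dicp1.1 belongs to the diverse immunoglobulin domain-containing proteins, a receptor family of fish, and was detected in 25 of the 50 wells. Its level was 366, 169, 100.1 and 159 CPM, against 2.03, 5.39, 2.88 and 5.13 CPM. The day 1 siblings stood above the other pools, with wide spread between pools. Of the 6 further dicp and nitr genes measured, 5 had no UMI in the 50 wells and dicp2.1 had 4 UMIs in 2 wells.

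Over the 593 wells the log levels of the rule genes were correlated, with Pearson's r between 0.33 for ccr9 with dicp1.1 and 0.62 for eomes with sftpba. Within the 50 wells r ranged from -0.08 to 0.34, the highest for ccr9 with sftpba. All pairs share the wells and their depth, and the score that chose the 50 wells was made of the same genes. After thinning every well to 1000 UMIs, sftpba was still seen in 70% of the 50 wells and 1.47% of the others, and eomes in 28% and 0.184%.

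Among 7448 genes with at least 50 UMIs over the kept wells, 28 were at least 4-fold higher in the eomes/ccr9-high wells in every pool (0.376%) and 54 were at least 4-fold lower (0.725%). The ratio was taken between CPM + 10 in both sets of wells of a pool, which understates the change of low genes. At 2-fold the counts were 158 (2.12%) and 359 (4.82%). Above the other wells in all 4 pools, by any amount, were 1233 genes (16.6%), and below them in all 4 pools 1709 genes (22.9%). These shares are the background for the counts of list genes below, and the median ratio of all these genes was 0.957.

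The highest of these genes has no name in the tables used here. ENSDARG00000079736 reached 1762, 3162, 3262 and 3051 CPM in the 50 wells, against 18.2, 26.9, 26.8 and 82.1 CPM in the others. It was detected in 41 of the 50 wells and was 33.2 to 88.8 times as high as in the other wells, the lowest ratio being that of the day 2 mutants. ENSDARG00000038458, also unnamed, was at 395, 365, 591 and 620 CPM against 30.4, 13.1, 26.4 and 42.7 CPM. Both unnamed genes separated the wells in each pool with no overlap between pools of the 50 wells and pools of the others.

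ENSDARG00000089327, at a lowest ratio of 8.25, was the next gene. wasa, the actin regulator of the Wiskott-Aldrich family, was at 448, 384, 441 and 251 CPM against 49.7, 43.9, 24.5 and 22.2 CPM. hcls1, a cortactin-like protein of blood cells, was at 652, 356, 320 and 444 CPM against 79.0, 66.2, 41.7 and 98.2 CPM. In both genes every pool of the 50 wells was above every pool of other wells.

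rgs18, a regulator of G protein signalling, was detected in 43 of the 50 wells, at 500.2, 300, 310 and 586 CPM against 54.7, 23.9, 30.7 and 83.7 CPM. prkar2a, a regulatory subunit of protein kinase A, was detected in 41 wells and was 5.38 to 9.46 times as high as in the other wells. zfp36l1, which binds and destabilizes mRNAs, was 5.08 to 11.6 times as high, and syne2b, a protein of the nuclear envelope, 5.42 to 8.31 times. The remaining named genes among the 20 with the largest lowest ratio included acap1, which acts on Arf GTPases, edaradd, an adaptor of the ectodysplasin receptor, and the transcriptional repressor bcl6, at 194, 272, 210 and 243 CPM against 23.3, 23.9, 13.9 and 17.1 CPM. No gene among these 20 had more than 28.9% of its UMIs of the 50 wells in 1 well.

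**Figure D2:**
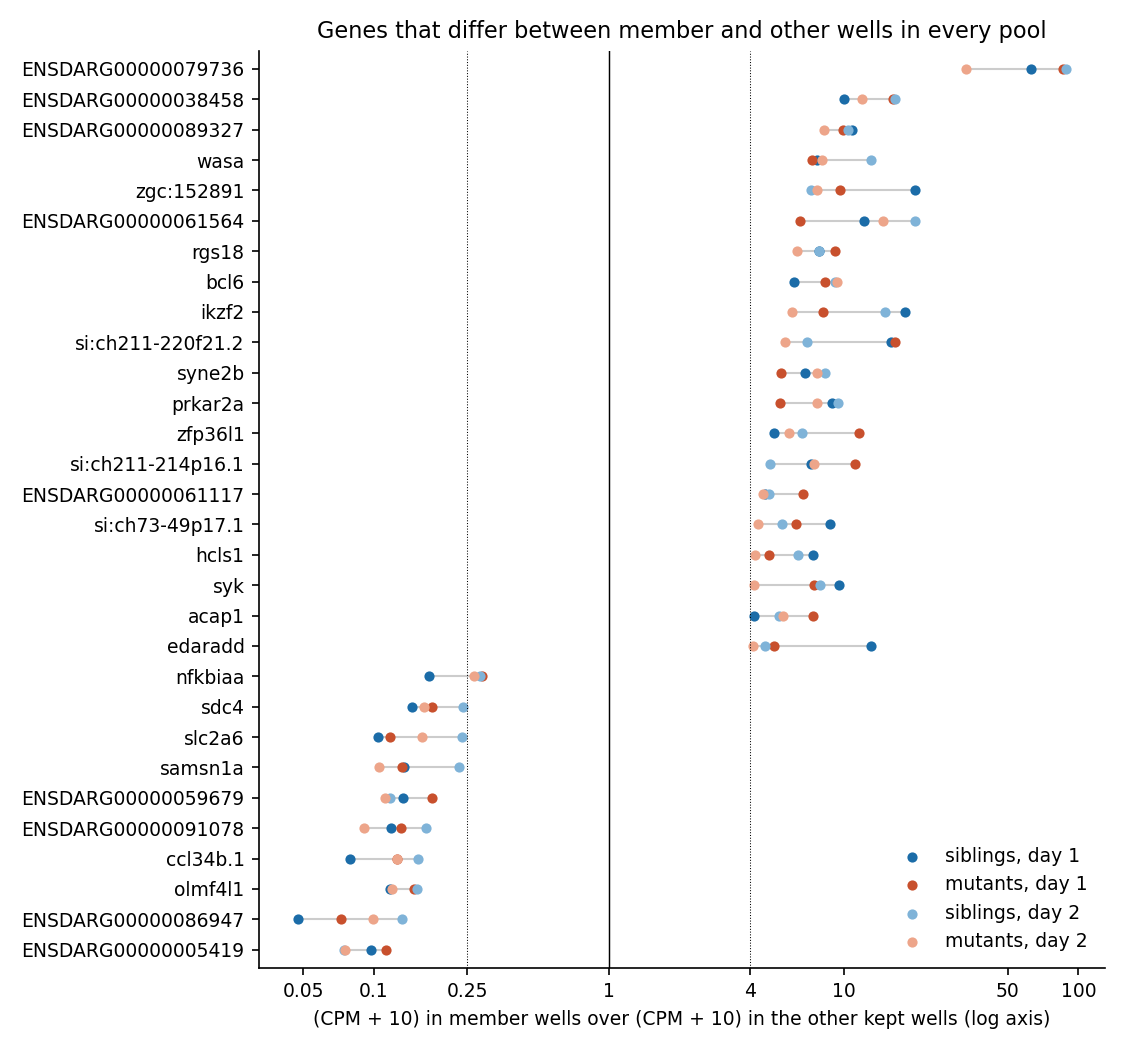
Each point is the ratio of CPM + 10 in the eomes/ccr9-high wells to CPM + 10 in the other kept wells of 1 pool, on a log axis, for the 20 genes with the largest lowest ratio and the 10 with the smallest highest ratio (the 4 rule genes left out). ENSDARG00000079736 stands apart at 33.2 to 88.8, the dotted lines mark 4-fold in both directions, and nfkbiaa ends just inside the lower line at 0.287.

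Of the transcription factors of lymphocytes, a minority was higher. Of the 14 measured genes of that list besides eomes, 5 were above the other wells in all 4 pools, namely ikzf2, tbx21, gata3, id3 and stat4, and 2 of them by at least 2-fold in each. Of the 9 genes with at least 50 UMIs, as required for the background shares of 16.6% and 2.12%, these were 4 and 1. ikzf2, the Ikaros family member Helios, had 52 UMIs in 17 of the 50 wells and 2 UMIs in 2 of the 543 others, at 172, 84.3, 140 and 50.2 CPM in the 50 wells. tbx21, which encodes T-bet, had 24 UMIs in 10 of the 50 wells and 2 UMIs in 2 others, at 104, 56.2, 20.02 and 16.7 CPM. Both genes were highest in the day 1 siblings, and tbx21 rested on few UMIs on day 2.

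gata3 was at 112, 103, 261 and 8.36 CPM against 17.2, 23.1, 12.5 and 3.42 CPM, with the day 2 mutants resting on a single UMI. id3 had 58 UMIs in 20 wells and stat4, a transducer of interleukin-12 signals, 29 UMIs in 17 wells. runx3 was above the other wells in 3 pools and below them in the day 1 mutants, at 178 against 216 CPM. ets1, lef1 and bcl11ba, factors of T cell development among their roles, had no UMI in the 50 wells.

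Receptors and kinases of lymphocyte signalling showed a split. Of 18 measured genes of that list, 4 were at least 2-fold higher in every pool (syk, il2rb, il2rga and ptprc), all of them among the 7 genes with at least 50 UMIs, against 2.12% of all genes. 6 of the 18 were above the other wells in all 4 pools and 2, prkcq and rag2, below them, while 7 had no UMI in the 50 wells. il2rb, a receptor chain for interleukins 2 and 15, was at 186, 169, 80.1 and 100.4 CPM against 35.5, 29.2, 9.59 and 28.2 CPM. il2rga, the common gamma chain, was at 186, 187, 300 and 285 CPM against 72.9, 80.0, 81.5 and 77.7 CPM. Neither gene overlapped between the pools of the 50 wells and of the others.

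jak3, the kinase bound to the common gamma chain, was 1.99 to 6.25 times as high, and il7r had 11 UMIs in 6 of the 50 wells. ptprc, the CD45 phosphatase of leukocytes, was at 583, 675, 671 and 888 CPM against 170, 150, 173 and 205 CPM. syk, a kinase of immune receptors that is expressed in B cells, natural killer cells and myeloid cells, was at 336, 225, 270 and 234 CPM against 26.3, 21.5, 25.4 and 48.7 CPM.

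Defining genes of T and B cells were at or near 0. rag1, rag2, cd4-1, cd8a, cd28, zap70 and itk had no UMI in the 50 wells, and 0 of 50 wells allows a share of up to 6% of wells with a UMI, or 6.52 CPM over their summed UMIs. They were also rare among the others, with 7 UMIs for rag2. Of the B cell list pax5, ighm and ebf1 were at 0 and cd79a had 1 UMI, and none of 8 measured genes was above the other wells in all 4 pools. The B cell list was not absent, since 1 of its genes was seen in at least 5 of the 50 wells. It held 0.0050% of UMIs in the 50 wells against 0.0109% in the others. The T cell kinase gene lck and the factor gene rorc were not analysed here, since no ID carries their name. In all, 12 of the 30 genes of the lymphocyte signalling list and 6 genes of the B cell list were not measured.

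Effector genes of natural killer cells were seen in few wells. nkl.3 had 18 UMIs in 3 of the 50 wells, 17 of them in the day 2 siblings, and nkl.4 had 11 UMIs in 3 wells. prf1.1 had no UMI, prf1.2 and prf1.9 had 1 UMI each and ifng1 had 2 UMIs in 1 well. srgn, the proteoglycan of secretory granules, was at 694, 703, 842 and 678 CPM against 430, 385, 610 and 687 CPM, so the values of the day 2 mutants lay close together. The label of lymphoid-like wells thus rested on part of the lymphoid factors and cytokine receptors. The defining T cell genes named above had no UMI, B cell genes were few and killer effector genes were seen in few wells.

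Other chemokine receptors went both ways. Of 19 measured genes besides ccr9, 3 were at least 2-fold higher in every pool and 3 at least 2-fold lower. Of the 10 with at least 50 UMIs these were 2 and 3, against 2.12% and 4.82% of all genes. ccr2 was at 89.5, 159, 120 and 50.2 CPM against 17.2, 13.1, 7.67 and 17.1 CPM, and ccr10 had 24 UMIs in 14 of the 50 wells against 15 UMIs in 15 of the others. The cxcr4 gene with the ID ENSDARG00000041959 was 2.40 to 5.30 times as high, and the other cxcr4 gene had 4 UMIs in the 50 wells. cxcr3.2, cxcr3.3 and ccr12b.1 were the lower ones, ccr12b.1 with 3 UMIs in the 50 wells against 451 in the others.

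Most genes of macrophages, the cells that the sort was meant to collect, were lower. Of 20 measured macrophage genes none was above the other wells in all 4 pools, 14 were below in all 4 and 9 by at least 2-fold, while 3 had no UMI in the 50 wells. The 14 and the 9 were all among the 17 genes with at least 50 UMIs, against 22.9% and 4.82% of all genes. marco, a scavenger receptor, was at 29.8, 65.6, 20.02 and 33.4 CPM against 240, 167, 302 and 247 CPM. cybb, a subunit of the phagocyte oxidase, had 14 UMIs in 13 of the 50 wells and lacc1 14 UMIs in 11 wells. The macrophage list summed to 0.147%, 0.259%, 0.187% and 0.220% of UMIs against 0.515%, 0.425%, 0.514% and 0.426%.

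Of 8 measured microglia genes 7 were below the other wells in all 4 pools and 5 by at least 2-fold, and these were the 7 with at least 50 UMIs. apoeb, an apolipoprotein, was at 44.7, 37.5, 90.1 and 58.5 CPM against 568, 260, 648 and 748 CPM. ccl34b.1, a chemokine, was at 82.0, 56.2, 300.4 and 134 CPM against 1155, 518, 2011 and 1142 CPM. These genes were low in each pool but not at 0, and wells at rank 1 to 25 and 26 to 50 of the score had median macrophage shares of 0.186% and 0.179%, against 0.472% in the other wells. The part of RNA from other cells in these levels was not tested.

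The lowest of the genes seen in at least 10 of the 50 wells were 2 without a name, ENSDARG00000005419, at 239, 197, 391 and 142 CPM against 2553, 1831, 5366 and 2002 CPM, and ENSDARG00000086947, at 0.0473 to 0.131 times the other wells. olmf4l1, the third, was at 269, 281, 561 and 134 CPM against 2382, 1963, 3728 and 1194 CPM. These 3 genes were lower in every pool, with no overlap between the pools of the 50 wells and of the others. nfkbiaa, an inhibitor of NF-kB and the least reduced of the 10, was at 642, 712, 1153 and 829 CPM against 3777, 2503, 4091 and 3131 CPM. sdc4, a cell surface proteoglycan, was at 261, 262, 661 and 293 CPM against 1865, 1538, 2788 and 1848 CPM. samsn1a and the sugar transporter slc2a6 were likewise below the others in every pool.

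Immediate early and heat shock genes were below in all 4 pools for 10 of 11 measured genes, hsp70l and atf3 by at least 2-fold, and 2 of the 11 had no UMI in the 50 wells. Among the 9 with at least 50 UMIs, 8 were below in all 4 pools, against 22.9% of all genes.

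Part of the genes around Shp1, several of them kinases, were higher. In the list of Shp1 signalling 5 of 19 measured genes were at least 2-fold higher in every pool, namely syk, hck, fgr, btk and pik3cd, and 1 of the socs3 genes was at least 2-fold lower. The 5 were all among the 16 genes with at least 50 UMIs, against 2.12% of all genes, and 7 of the 16 were above the other wells in all 4 pools and 2 below. fgr, a Src family kinase, was at 306, 215, 451 and 284 CPM against 69.9, 49.2, 47.9 and 93.1 CPM. hck, another Src family kinase, was at 157, 281, 270 and 511 CPM against 63.8, 99.3, 57.5 and 119 CPM. For fgr the pools of the 50 wells lay above all pools of other wells, and for hck likewise.

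plcg2, a phospholipase downstream of Syk, was 1.62 to 4.47 times as high, and btk, a kinase of the Tec family, had 40 UMIs in 22 of the 50 wells. blnk, the B cell adaptor of this route, had 4 UMIs in 3 wells. flt3, a receptor of lymphoid and dendritic progenitors, had 12 UMIs in 10 wells. It was the only gene of 15 on the dendritic list that was higher in all 4 pools, and 3 were lower in all 4. Of the 7 dendritic genes with at least 50 UMIs, 0 were above and 3 below in all 4 pools, against 16.6% and 22.9% of all genes. irf8, a factor of dendritic cells and macrophages, had 3 UMIs in 1 well.

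Genes of antigen presentation varied between pools. b2m was 2.12 to 4.65 times as high as in the other wells and cd74b 1.24 to 3.93 times. cd40 was lower, at 179, 112, 80.1 and 50.2 CPM against 696, 344, 202 and 367 CPM.

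Part of the cell cycle genes were higher. Of 20 measured genes 10 were above the other wells in all 4 pools, all of them among the 13 with at least 50 UMIs, against 16.6% of all genes. 1 was below in all 4 pools and 2 had no UMI in the 50 wells. Of the 13, 2 passed 2-fold, against 2.12% of all genes, namely the stmn1 gene ENSDARG00000004169 and mki67. mki67 was at 645, 93.7, 160 and 251 CPM against 48.7, 32.3, 36.5 and 81.4 CPM, and 45.9% of its UMIs in the 50 wells came from 1 well. At least 2 of 7 mitotic genes were seen in 12 of the 50 wells (24%) and in 47 of the 543 others (8.66%). The exact 95% interval of the 24%, 13.1% to 38.2%, covers counting error only and ignores the pools. By pool the shares were 25%, 20%, 16.7% and 36.4%, from 3, 3, 2 and 4 wells. The other wells stood at 6.72%, 5.69%, 11.2% and 9.65%. At equal depth of 1000 UMIs the counts were 4 of 50 and 12 of 543, so most of these wells cannot be read at that depth.

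Markers of other tissues were scarce, apart from the metaphocyte and epidermis list in the day 1 siblings. That list held 0.125%, 0.0140%, 0.0130% and 0.0125% of UMIs against 0.110%, 0.220%, 0.0891% and 0.0520%. In the day 1 siblings 83 of the 97 UMIs of its gene grna.2 came from 1 well. The list of mesenchyme, endothelium, muscle and neurons summed to 0.0239%, 0.0243%, 0.0170% and 0.0050% of UMIs against 0.0397%, 0.169%, 0.0462% and 0.0208%. Of 7 measured genes of intestine and pancreas 6 had no UMI in the 50 wells. Neutrophil genes summed to between 0.0431% and 0.0952% against 0.135% to 0.218% in the others.

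**Figure D3:**
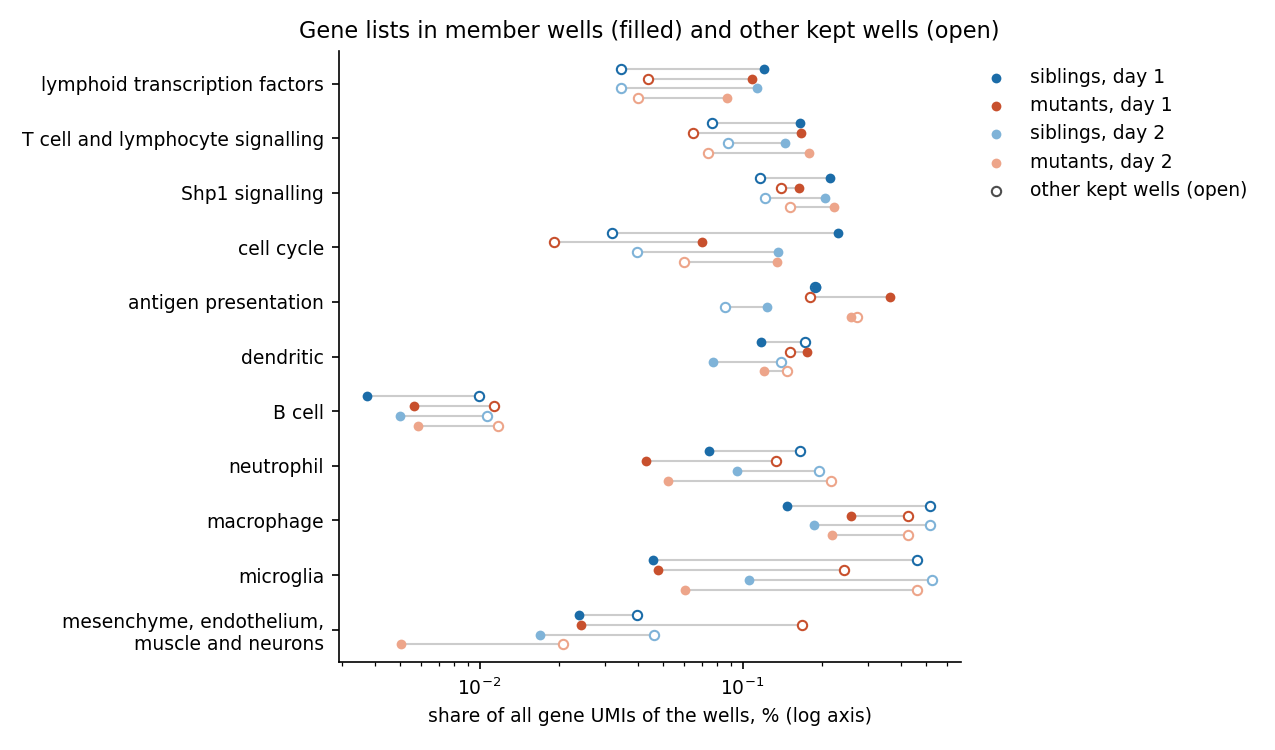
Share of all gene UMIs, in percent on a log axis, of 11 gene lists in the eomes/ccr9-high wells (filled) and the other kept wells (open) of each pool, without the rule genes. Lymphoid factors were at 0.0870% to 0.121% against 0.0345% to 0.0437%, while macrophage and microglia genes lay to the left of their open symbols in every pool.

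The 50 wells were also set beside 50 wells each that were chosen in the same way by apoeb and apoc1, by mfap4 and lacc1, and by cxcr4 and noct. They shared 0, 0 and 3 wells with these groups. The 3 shared wells were left out of the values of the cxcr4 and noct group, which therefore describe only wells outside the 50. Lymphoid factors other than eomes held 0.108% of UMIs in the 50 wells and 0.0166%, 0.0296% and 0.0400% in the 3 groups. Cell cycle genes held 0.148% against 0.0222%, 0.0195% and 0.0895%. These are shares of summed UMIs, to which deep wells add most. The median well held 0.0490% at rank 1 to 25 of the score and 0.0368% at rank 26 to 50, against 0.0132% in the other wells. In 2 lists that include cxcr4 the cxcr4 and noct group was higher than the 50 wells. Precursor genes held 0.110% against 0.0542%, 0.0223% and 0.138%. That list holds cxcr4 and noct, by which the last group was chosen. In the 50 wells the cxcr4 gene ENSDARG00000041959 alone had 452 UMIs. Of 11 measured precursor genes 1 was above the other wells in all 4 pools, 3 were below and 4 had no UMI. Of the 4 with at least 50 UMIs, 1 was above and 2 below, against 16.6% and 22.9% of all genes. Chemokine receptors other than ccr9 held 0.139% against 0.0899%, 0.0684% and 0.167%. eomes and sftpba stood at 7.40 and 18.5 CPM in the cxcr4 and noct group, which had the highest ccr9 level of the 3 groups at 504 CPM.

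By genotype, the wells made up 9.16% of kept wells in day 1 siblings (12 of 131, exact 95% interval 4.82% to 15.5%) and 10.9% in day 1 mutants (15 of 138, 6.21% to 17.3%). On day 2 they made up 6.03% in siblings (12 of 199, 3.15% to 10.3%) and 8.80% in mutants (11 of 125, 4.48% to 15.2%). The intervals cover counting error only and overlap on both days. The mean was 7.60% ± 2.21 in siblings and 9.83% ± 1.46 in mutants (SD, n = 2 pools each), a difference of 2.24 percentage points, or 1.71 on day 1 and 2.77 on day 2. The day 1 difference turned round when well numbers were read column by column (11.02% in siblings and 9.15% in mutants) and with 30 wells chosen (6.11% and 5.80%). The exact permutation test over pools gave a 2-sided p of 0.667, and the smallest p that 2 against 2 pools allow is 0.33.

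**Figure D4:**
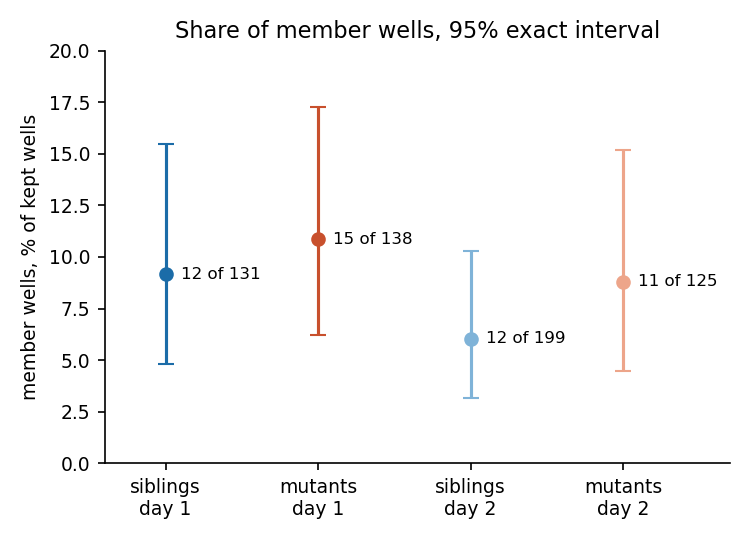
Share of kept wells that belonged to the eomes/ccr9-high wells in each pool, in percent, with exact 95% intervals for counting error and the number of wells beside each point. The 4 shares lie between 6.03% and 10.9% and all intervals overlap.

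ptpn6 itself was too scarce to check the labels. In the 50 wells it had 6 UMIs in 2 wells of the day 1 siblings (exact Poisson interval 2.2 to 13.1) and none in the other 3 pools, where 0 UMIs allow up to 3.69. In the other wells it had 5, 5, 3 and 0 UMIs. The day 1 mutants therefore held ptpn6 UMIs in wells outside the 50, and the sources used here do not say what the allele does to the transcript.

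No gene was called between mutants and siblings within the eomes/ccr9-high wells. edgeR's quasi-likelihood test on the 4 sums, with Benjamini-Hochberg adjustment over 1455 genes, called 0 genes (0%), 55 genes had an unadjusted p under 0.05, and DESeq2 called 2. The same edgeR test called 0 of 7810 genes in the other wells (0%), with 294 under 0.05 unadjusted and 27 called by DESeq2. None of the gene lists had a called gene in either set of wells.

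The genes with the smallest p in the 50 wells are given as values, since none passed the adjustment. ENSDARG00000013916, unnamed, was at 359, 28.1, 280 and 0 CPM in the 50 wells, from 48, 3, 28 and 0 UMIs, and at 74.97, 26.2, 49.4 and 3.42 CPM in the others. Its log2 fold change of mutants over siblings was -4.44 ± 0.81 (SE), with an edgeR adjusted p of 0.331. Both mutant pools were below both sibling pools in both sets of wells.

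ctss2.1, a cathepsin S gene, was at 201, 1164, 331 and 848 CPM in the 50 wells and at 541, 477, 385 and 498 CPM in the others, where the genotypes overlapped. Its log2 fold change in the 50 wells was 1.99 ± 0.36 (SE), with an edgeR adjusted p of 0.331, from 286 UMIs in 35 wells. A single well gave 37 of the 124 ctss2.1 UMIs in day 1 mutants, and another gave 52 of the 101 in day 2 mutants. mmp9, a matrix metalloproteinase, was at 292, 65.6, 391 and 75.3 CPM in the 50 wells and at 104, 98.6, 44.6 and 328 CPM in the others. Its log2 fold change was -2.2 ± 0.41 (SE), with an edgeR adjusted p of 0.331, and 37 of its 39 UMIs in day 1 siblings came from 1 well.

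enpp1, an ectonucleotidase, was at 22.4, 131, 20.02 and 259 CPM and rgs13a, a regulator of G protein signalling, at 373, 732, 370 and 1039 CPM. Their log2 fold changes were 3.15 ± 0.66 and 1.28 ± 0.30 (SE), with edgeR adjusted p of 0.498 and 0.843. For rgs13a a single well gave 40 of the 78 UMIs in day 1 mutants, and another gave 37 of the 124 in day 2 mutants. For all 5 genes the mutant pools and the sibling pools did not overlap in the 50 wells, as for 435 of the 1455 genes tested (29.9%), and they were picked for their small p. When well numbers were read column by column, which deals the day 1 wells anew to the genotypes, the fold changes of ENSDARG00000013916, ctss2.1, enpp1 and rgs13a were -0.28, 0.68, 1.1 and 0.45, and that of mmp9 was -2.34.

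**Figure D5:**
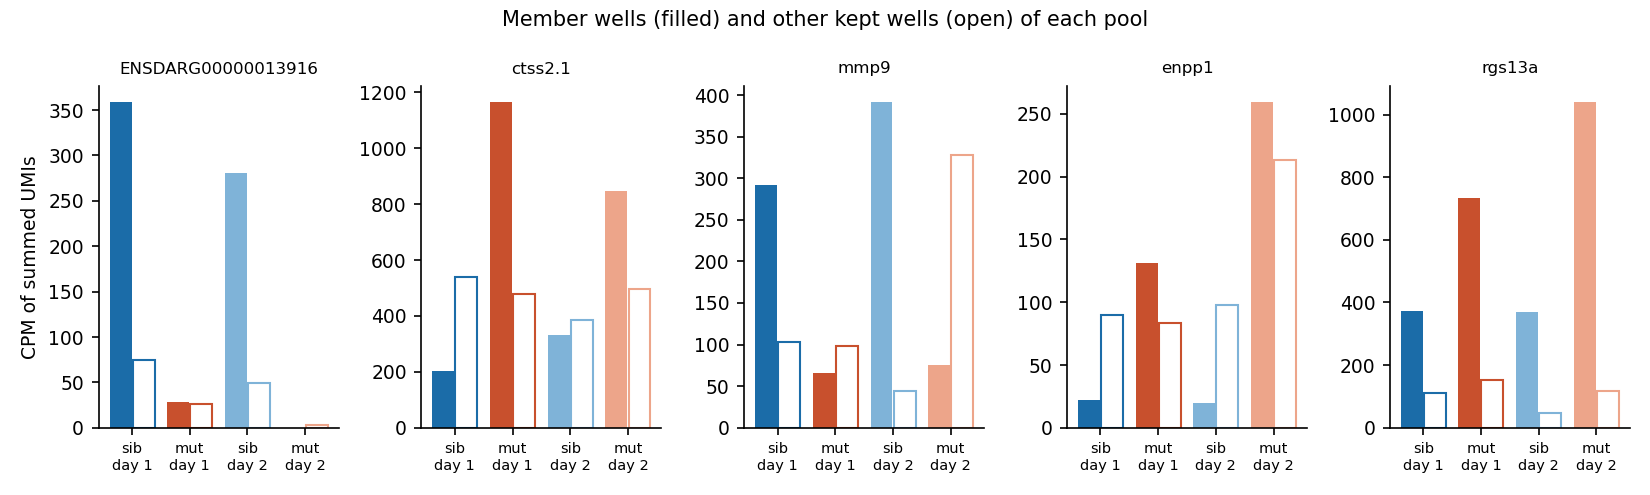
CPM of summed UMIs in the eomes/ccr9-high wells (filled bars) and the other kept wells (open bars) of each pool for the 5 genes with the smallest genotype p, without error bars since each bar is 1 pool. ctss2.1, enpp1 and rgs13a are higher in both mutant pools of filled bars and ENSDARG00000013916 and mmp9 lower, and none passed the adjustment.

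Among the genes of the lists, cd74a, the invariant chain of class II presentation, was at 516, 1145, 270 and 1106 CPM in the 50 wells and at 146, 488, 167 and 1221 CPM in the others. Both mutant pools were above both sibling pools in each set of wells. In the 50 wells 29.9% of genes tested had no overlap between genotypes in either direction. The log2 fold change of cd74a in the 50 wells was 1.52 ± 0.39 (SE), with an edgeR adjusted p of 0.995. The rule gene sftpba had a log2 fold change of 0.60 and eomes one of -0.17 between genotypes. They are given without a test or standard error, since the score used these genes.

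Whether a genotype effect differed between the 50 wells and the others was tested by an interaction on 8 sums with a term for each pool. edgeR's quasi-likelihood test called 17 of 6864 genes (0.248%), 6 with a higher and 11 with a lower mutant effect in the 50 wells, and 326 genes had an unadjusted p under 0.05. In 9 of the 17 more than 50% of the UMIs of the 50 wells came from 1 well. The fit left 2 residual degrees of freedom and estimated a common spread for all genes, so that a gene carried by 1 well was not given a wider spread of its own.

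mmp9 had an interaction of -3.59 ± 0.56 (SE, log2), with an adjusted p of 3.32e-07 in that edgeR test, and of the 17 genes it was the only gene that remained called in each refit without scaling, without a filter and without each pool in turn. Without day 2 mutants, the weakest case, its value was -2.76, with an edgeR adjusted p of 0.0165. In the 50 wells its mutant pools lay below both sibling pools, and in the other wells the day 2 mutants were highest. The siblings' level in the 50 wells rested on 3 wells on each day.

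ctss2.1 had an interaction of 2.05 ± 0.42 (SE, log2), with an edgeR adjusted p of 7.39e-04, and without the day 1 siblings the value was 1.43, with an adjusted p of 0.982. The muscle genes pvalb1, pvalb2 and myl11 were among the 11 with a lower mutant effect. Without the day 1 mutants their values went from -2.17, -2.94 and -4.65 to 0.62, -0.11 and 0.069, with an edgeR adjusted p of 1 for each. pvalb2 was at 649, 562, 70.1 and 33.4 CPM in the 50 wells and at 650, 7131, 96.4 and 45.3 CPM in the others, so the sets of wells lay farthest apart in the day 1 mutants. In that pool the list of mesenchyme, endothelium, muscle and neurons was also highest in the other wells, at 0.169% of UMIs, and its part in the result was not tested.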

How the data were processed

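Per the labels' protocols, mpeg-positive cells were sorted into 3 plates of 384 wells and processed with CEL-Seq2. The values deposited by the authors are expected counts, that is UMI counts corrected so that they need not be whole, and they carry no depth scaling. The submitters' processing notes name BWA and the build Zv9. The sources used here do not state how genes were annotated and counted. Near-identical gene copies (mfap4, ccl34b, dicp, si: genes) could have shared reads and are uncertain. Symbols were found for 17027 of 21915 IDs, which held 75.9% of UMIs, and list genes were matched by symbol or by the symbol without its paralogue letter.

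The tables number wells from 1 to 384 without names, all 3 alike, so wells were told apart by plate. Numbers were read row by row, with siblings in the first 192 wells of the shared plate. The 8 corner wells, which this protocol usually leaves empty, then held a median of 0.0591, 0.799 and 0.0890 of the plate median (shared, mutant and sibling plate), against 1.66, 1.07 and 0.198 when read column by column. Kept wells per pool summed to between 1121210 and 2185640 UMIs. Doublets were not called.

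Spike-ins were left out. UMIs were summed per pool over the 50 wells and over the others. Expected counts were rounded for edgeR 4.0.16 (TMM, filterByExpr, quasi-likelihood test, Benjamini-Hochberg, threshold 0.05) and DESeq2 1.42.0 in R 4.3.3. The edgeR fit was also run on simulated data, but the outcome is not given here. The size of change that these tests could miss is therefore not stated. The wells of a genotype and day were the replicates (n = 2 per genotype). Sort day is shared by the numbered pools per the labels, and the deviations of same-day pools from their group means correlated at 0.168 in the 50 wells. Thinning drew 1000 UMIs per well at a fixed seed. Intervals are exact (Clopper-Pearson or Poisson, 95%). Python 3.11.15 with numpy 2.4.6, pandas 2.3.3 and scipy 1.17.1 was used.

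Named were the 4 rule genes and part of the list genes seen in at least 5 of the 50 wells. A list gene that is not named can therefore still have been seen in 5 wells or more. For example, 13 macrophage genes were, and only some of them are named. Among genes seen in at least 10 of the 50 wells with at least 50 UMIs, 2 sets were named or drawn. These were the 20 with the largest lowest ratio over pools and the 10 with the smallest highest ratio. In the genotype tests all called genes up to 20 per direction, or else the 5 with the smallest p, were named, except 1 gene of the interaction test that is not reported here. List genes at 0 or in fewer wells were also named, to give the lists' defining genes. The members, lists and tests were chosen with earlier results of these data known, and the minimum of 50 UMIs for the background genes was set after seeing the data.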

Additional observations from a re-analysis of the deposited data

Results flagged for a closer look

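For 17 genes the genotype effect differed between the eomes/ccr9-high wells and the other wells in edgeR's interaction test (Benjamini-Hochberg adjusted p under 0.05). Values are log2 differences of the mutant effect, that in the 50 wells minus that in the others. mmp9 stood at -3.59 and ctss2.1 at 2.05, both described above. ENSDARG00000009563 stood at 9.65, with 195 of its 201 UMIs of the 50 wells in 1 day 1 mutant well. fabp7, a fatty acid binding protein, stood at 8.26 with 36 of 38 UMIs in 1 well. ENSDARG00000069054 stood at 9.96 from 10 UMIs and ENSDARG00000069841 at -9.34 from 22 UMIs.

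For ENSDARG00000069054 both sibling pools of the 50 wells were at 0, and for ENSDARG00000069841 both mutant pools were, so both values depend on the prior count and are no bounds. grna.2, a granulin, stood at -3.72 with 76.8% of its UMIs in 1 well, si:dkeyp-1h4.9 at -4.97 with 93.3%, ENSDARG00000093754 at -2.97 with 73.1% and ENSDARG00000070622 at -1.70 with 72.5%. The muscle genes were pvalb2 at -2.94, pvalb1 at -2.17 and myl11 at -4.65, beside ENSDARG00000037840 at -2.40. scinlb, an actin-severing protein of the gelsolin family, stood at -1.89 and si:ch73-308b14.1 at 1.38, the latter with 405 of its 2313 UMIs in 1 day 2 mutant well.

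Rule genes were also present in the 559 wells with fewer than 1000 UMIs, which entered no comparison. Over the sum of those wells eomes stood at 54.8 CPM (7 UMIs in 5 wells), ccr9 at 329 CPM (42 UMIs in 39 wells), dicp1.1 at 31.3 CPM (4 UMIs in 4 wells) and sftpba at 148.8 CPM (19 UMIs in 17 wells). In this sum each was above the 23.5 CPM that a count of 0 allows and above the level in the other kept wells. The other kept wells are a low reference by construction, since the wells highest in these genes had been taken out of them. No such wells were taken out of the wells with fewer than 1000 UMIs, so this comparison does not show an enrichment there. A comparison with all kept wells was not made. Single plates were also set against the count of 0 and the other kept wells. Both levels were passed for eomes (167 CPM, shared plate) and ccr9 (446 and 398 CPM, shared and mutant plates). The same held for sftpba (199 and 193 CPM, mutant and sibling plates), but for dicp1.1 on no plate. By plate, 6 of the 7 eomes UMIs were on the shared plate, dicp1.1 stayed below what a count of 0 allows on each plate, sftpba did so on the shared plate, and ccr9 on the sibling plate was at 172 CPM against 241 CPM in the other kept wells.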

How the results depend on the processing

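The mean share of these wells stayed higher in mutants under all 12 alternatives, by 0.451 points (wells read column by column) to 6.08 points (75 wells chosen), but the day 1 difference turned under 2 of them, as given above. Genotype calls in the 50 wells went from 0 to 25 without a filter on low counts, 2 with DESeq2 and 1 to 26 without 1 pool in turn; calls in the other wells went from 0 to 1 without scaling, 226 without the filter, 27 with DESeq2 and 0 to 270 without 1 pool. With the replicate block (sort day) there were 0 calls in the 50 wells and 2 in the others. Fits without a pool tested 1782 to 2065 genes in place of 1455 and assume that the lone pool varies like the others. Interaction calls went from 17 to between 11 and 40 without 1 pool, an alternative added after seeing the data, and 5 genes turned: si:dkeyp-1h4.9 (range -6.42 to 2.57, the latter without day 1 siblings), myl11 (-5.45 to 0.069), ENSDARG00000037840 (-2.97 to 0.19) and pvalb1 (-3.18 to 0.62), these 3 turned without day 1 mutants, and ENSDARG00000070622 (-3.74 to 0.87, without day 2 siblings). Genes 4-fold higher in every pool went from 28 to 17 with 75 wells, 16 with wells chosen at 1000 UMIs, 158 at 2-fold, 3 at 8-fold, 59 and 5 with pseudocounts of 1 and 50 CPM and 34 to 38 without 1 pool. Genes 4-fold lower went from 54 to 82 with 30 wells, 14 with 75 wells, 12 with wells chosen at 1000 UMIs, 359 at 2-fold, 2 at 8-fold, 211 and 14 with those pseudocounts and 76 to 83 without 1 pool. A rule over fewer pools is easier to pass by construction; the cause of the other moves was not tested. The 50 wells summed to 99906 to 134117 UMIs per pool and the others to 987096 to 2085730.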
